A study of Paracentrotus lividus with 54 samples.

Results

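At the mesenchyme blastula of the sea urchin Paracentrotus lividus, 96 of 33922 gene models carried reads that were nearly absent from the egg and from every earlier stage sampled. They were chosen by level alone, in CPM, the count of a gene scaled by the total count of its library. A member had at most 1 CPM in each of the 11 libraries from egg to swimming blastula and at least 5 CPM in both mesenchyme blastula libraries. Its level in Aristotle's lantern, the chewing apparatus, was under 4 times the highest of ovaries, gut and tubefeet. The levels up to late mesenchyme blastula, and the cap on the lantern, therefore describe how the genes were chosen and are given without a test. The rule allowed up to 150 genes, but 15102 gene models were off in all 11 earlier stages, 9706 were on in both mesenchyme blastula libraries and only 102 were both, of which the lantern condition set 6 aside.

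The mesenchyme blastula is the stage at which cells leave the vegetal epithelium and enter the blastocoel as primary mesenchyme, which later makes the larval skeleton. Gastrulation follows, in which the gut invaginates and further mesoderm forms, and the embryo passes through the prism to the pluteus, the feeding larva with arms. Genes switched on at this point in sea urchins include those of skeletogenic and pigment cells and of the gut, but the count table does not pair its identifiers with names. The members are therefore described by identifier, level, position and chromatin, and no function is given to any of them.

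All samples were labelled wild type and normally developing. RNA-seq covered whole embryos or larvae in 17 libraries: egg (0 h), 2-cell (2 h), 4-cell (3 h), 8-cell (4 h), 16-cell (4.5 h), 32-cell (5 h), 64-cell (5.5 h), 128-cell (6 h), early blastula (6.5 h), blastula (7.5 h), swimming blastula (12 h), early mesenchyme blastula (18 h), late mesenchyme blastula (20 h), early gastrula (21 h), late gastrula (24 h), prism (36 h) and the 4-arm pluteus larva (48 h). A further 5 libraries came from adults of no stated age and covered the ovaries, the gut, the tubefeet, the bodywall and Aristotle's lantern. Each stage or tissue had 1 RNA library, so stage and culture cannot be told apart, and in whole embryos a change in the number of cells and a change in RNA per cell cannot be told apart either. Open chromatin was mapped by ATAC-seq, in which a transposase cuts accessible DNA, in 28 samples at stages from 16-cell to pluteus, and is read here from 1 peak list per stage.

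Library totals ran from 14657193 to 36305776 counts. The share of counts on Scaffold_2421, which holds 9 gene models, set 3 developmental libraries apart: it was 0.292% in early mesenchyme blastula, 0.608% in late mesenchyme blastula and 0.209% in pluteus, against 3.12% to 7.56% in the other 14. In the adult libraries it was 0.084% to 0.399%. Both libraries on which membership rests thus belong to the 3 that stand apart, and the part of this difference in the members' levels was not tested. With the counts of this scaffold left out of the totals, 90 genes passed the rule, all of them among the 96. Of the 96, 63 were also at 5 CPM or more in early gastrula, a library with 3.32% on the scaffold. Prism stood apart in another way, with 12637 genes at 1 CPM or more against 13222 to 17397 in the other developmental libraries, and a TMM factor of 0.367.

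**Figure D1:**
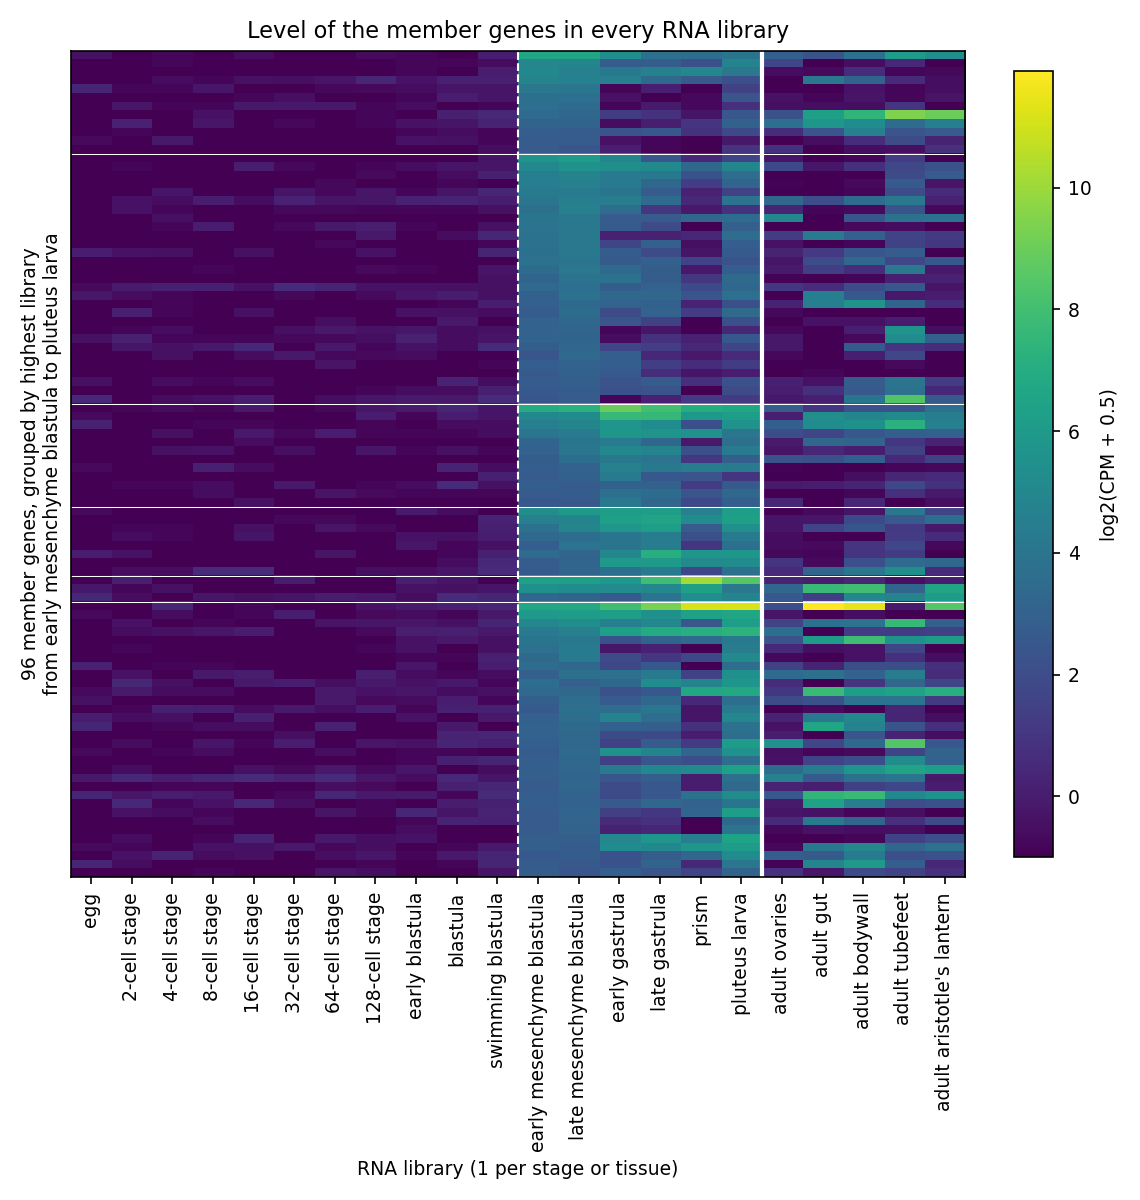
Level of each of the 96 members in all 22 RNA libraries, as log2(CPM + 0.5) in colour, with libraries in columns and members in rows grouped by the library from early mesenchyme blastula to pluteus in which they were highest. The dashed line marks the step at which the rule placed them, the solid line separates adult tissues; the rows to the right of the dashed line differ widely, with medians of 2.16 CPM in prism and 12.67 CPM in pluteus.

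Before the mesenchyme blastula the members lay close to the counting floor, which was between 0.202 and 0.381 CPM in the developmental libraries (3 counts, after division by 2 because all counts there were even). Their median was 0 CPM in the egg and 0.33 CPM in swimming blastula. In 3 members no read was counted in any of the 11 earlier stages, 39 never exceeded 0.5 CPM, and 11 reached more than 0.9 CPM somewhere. Swimming blastula held the highest earlier level of 32 members. At 18 h the median was 8.17 CPM and the highest member stood at 127 CPM, and at 20 h these were 11.41 and 150 CPM. In late mesenchyme blastula 72 of the 96 were higher than in early mesenchyme blastula, 4 of them at least 2 times, and none was 2 times lower. The median of the 9610 other genes on in both libraries was higher too, at 27.27 CPM in late against 23.21 CPM in early mesenchyme blastula. TMM factors were 0.812 in early and 0.937 in late mesenchyme blastula. How many of those other genes were higher was not counted. Most members were thus modest: 49 had a mean under 10 CPM over the mesenchyme blastula libraries and 20 had 20 CPM or more.

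The thresholds cut through a continuum. PL30742 and PL31806, each with a highest earlier level of 0.999 CPM, were just inside, and PL10232 and PL29197, each with 1.014 CPM, just outside. At the other threshold PL14285 and PL28392 entered with 5.018 CPM in their lower mesenchyme blastula library, and PL04660 stayed out with 4.881 CPM. A further 84 genes missed the rule only because an earlier library lay above 1 and up to 2 CPM, and 16 only because the lower mesenchyme blastula library lay between 4 and 5 CPM.

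The member with the highest mesenchyme blastula CPM, a level not set per length, was PL00340, on the plus strand of Scaffold_3425 from 38165967 to 38183756, a model with 2 exon records. It had 0.332 CPM in swimming blastula (exact 95% Poisson interval 0.091 to 0.851), 127 in early and 150 in late mesenchyme blastula, 500 and then 254 in the gastrula libraries, 129 in prism and 103 in pluteus. It was thus highest at 21 h. In CPM, which leaves out the TMM factor of 0.367 in prism, it was back near its first level in the larva. In adult tissues it lay between 1.45 CPM in gut and 12.6 CPM in the lantern.

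PL22768, on the minus strand of Scaffold_3433 from 49318845 to 49325455 with 27 exon records, was higher in CPM at each stage from early gastrula on. The order of prism and pluteus depends on the scaling, since their TMM factors were 0.367 and 1.076. PL22768 had 0.831 CPM in swimming blastula, 105 and 109 in the mesenchyme blastula libraries, 243 and 645 in the gastrula libraries, 2236 in prism and 2364 in pluteus. It was also the highest member in adult gut, with 3861 CPM, and in adult bodywall, with 2727 CPM. In the lantern it had 360 CPM, in ovaries 3.75 CPM and in tubefeet 0.467 CPM, so that its adult libraries fell into a very high and a very low set.

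PL07609, on the minus strand of Scaffold_2100 from 34471989 to 34519315, went the other way. It had 0.499 CPM in swimming blastula, 96.9 and 94.5 in the mesenchyme blastula libraries, 42.7 and 12.8 in the gastrula libraries, 12.0 in prism and 16.0 in pluteus. It was highest at the stage that defines the group and lower in each gastrula and larva library. Among adult tissues it was highest in tubefeet, with 67.0 CPM.

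PL34185, at 12044986 to 12062860 of Scaffold_3430 (plus strand), was not detected in swimming blastula (0 counts, floor 0.249 CPM). It stood at 84.1 and 79.0 CPM in the mesenchyme blastula libraries, 58.9 and 247 in the gastrula libraries, 1132 in prism and 361 in pluteus. No adult tissue exceeded 0.819 CPM, so it was at 5 CPM or more only in the embryo and larva libraries from 18 h on. Per kilobase of exon the order of members differed: PL37963, with an exonic length of 411 bases, led at a mean of 158 CPM per kb in the mesenchyme blastula libraries, against 33.6 CPM per kb for PL00340 and 40.5 for PL22768. PL37963 was picked out after its values were seen; it stayed between 43.9 and 97.1 CPM from early mesenchyme blastula to pluteus and did not exceed 0.331 CPM in any adult tissue.

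**Figure D2:**
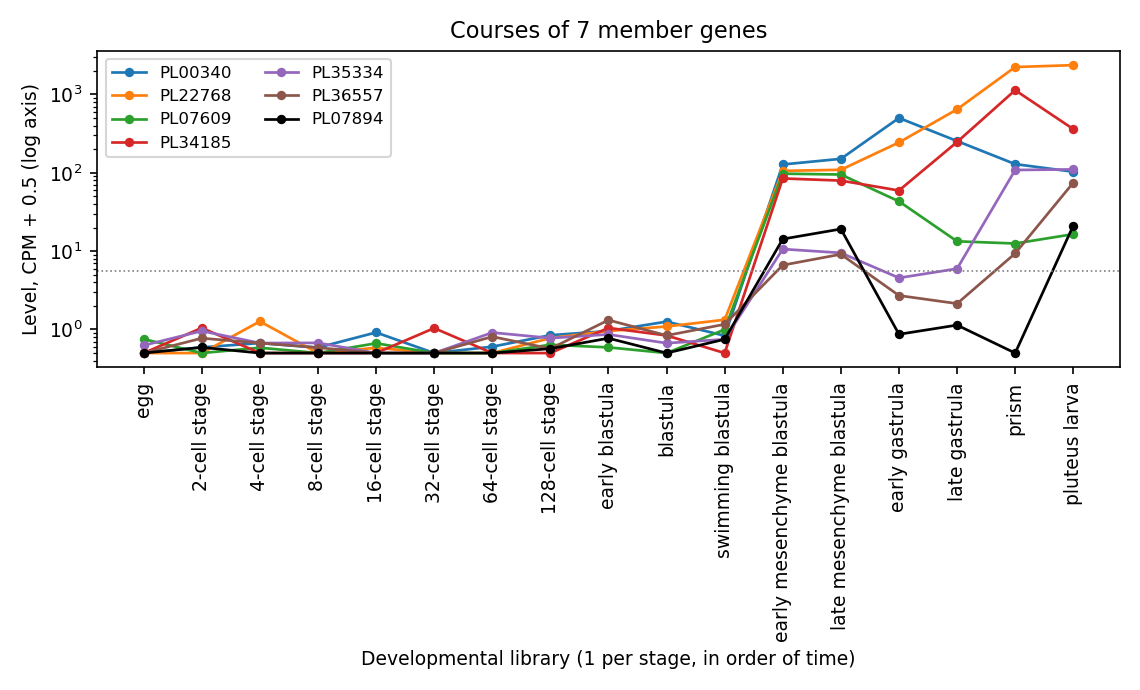
Courses of 7 members through the 17 developmental libraries, as CPM + 0.5 on a log axis, 1 point per library; the dotted line marks 5 CPM. All lie near the floor up to swimming blastula, PL22768 reaches 2364 CPM in pluteus, PL07609 falls to 16.0 CPM, and PL07894 is at 0 counts in prism between 18.7 CPM in late mesenchyme blastula and 20.7 CPM in pluteus.

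After the mesenchyme blastula the members parted. The counts that follow set the later libraries, which the rule did not use, beside the mesenchyme blastula libraries, which it did, and are a description. Of the 96, 12 were highest in early and 29 in late mesenchyme blastula, 12 and 8 in early and late gastrula, 3 in prism and 32 in pluteus. The highest library was pluteus for 33.3% of members and for 23.4% of the 9610 other genes on in both mesenchyme blastula libraries. Scaled by TMM factors over all libraries, only 16 members were highest in pluteus, and the other genes on were not counted under that scaling. At 5 CPM or more in early gastrula, late gastrula and pluteus alike were 50 members (52.1%), against 93.2% of the other genes on. Those other genes had higher CPM to begin with, with a median of 23.21 CPM in early mesenchyme blastula against 8.17 CPM for the members, and a first quartile of 11.18 against 6.63 CPM. In pluteus 21 members (21.9%) stood at least 2 times above their higher mesenchyme blastula library, against 12.2% of the other genes, and 25 (26.0%) stood at no more than 1/2 of their lower one, against 11.0%. By pluteus 4 members (4.17%) were back at 1 CPM or less, against 0.552% of the other genes.

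A set of 14 members (14.6%) was under 2 CPM in both gastrula libraries, against 0.583% of the other genes on. They were on at 18 and 20 h and nearly off at 21 and 24 h, and 7 of them (7.29% of members, against 0.208% of other genes) were at 5 CPM or more again in pluteus. PL07894, on the minus strand of Scaffold_25 from 11280 to 12255, had 13.8 and 18.7 CPM in the mesenchyme blastula libraries, 0.369 and 0.638 in the gastrula libraries, 0 counts in prism (floor 0.316 CPM) and 20.7 in pluteus. PL37557, on the minus strand of Scaffold_553 from 27087 to 31766, had 6.04 and 8.05 CPM, then 0.645, 0.820, 0 counts and 15.03 CPM in the same order. Both were picked out after their values were seen. The exact 95% Poisson interval of PL07894 ran from 16.1 to 21.5 CPM in late mesenchyme blastula and from 0.100 to 0.944 CPM 1 stage later, in early gastrula.

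Both mesenchyme blastula libraries and pluteus are the 3 developmental libraries with under 1% of counts on Scaffold_2421, while early gastrula, late gastrula and prism each have over 3%. That the 14 were higher in mesenchyme blastula than in the gastrula follows from how they were chosen. Pluteus, which was not used to choose them, lay above early gastrula, late gastrula and prism in all 14, beside gastrula levels that were chosen to be low. The same held for 49 of the 96 members (51%) and for 31.8% of the other genes on at mesenchyme blastula. In at least 1 adult tissue 7 of the 14 were at 5 CPM or more, among them PL27981, described with the adult tissues, while PL07894 reached 2.75 CPM at most and PL37557 0.276 CPM. Whether the course belongs to the stages or to the libraries was not tested and cannot be told apart with 1 library per stage.

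The larva was then compared with the gastrula over all genes, with prism and pluteus on one side and early and late gastrula on the other, none of which the rule had used. The quasi-likelihood test in edgeR, with the 17 developmental libraries grouped into 6 blocks of neighbouring stages, called 2.31% of the 22940 genes tested higher in the larva and 0.432% lower, at an adjusted p under 0.05 and a log2 change of 1. Of the 96 members, all of which were tested, 2 (PL35334 and PL36557) were called higher and none lower; 22 had an unadjusted p under 0.05, as had 3941 of the 22940 genes. A count of 2 in 96 is close to the share of all genes. The median log2 change was 0.42 over the members and -0.02 over all genes tested, and with library totals in place of TMM scaling both were lower, at -0.10 and -0.49. Libraries of neighbouring stages stood in for replicates, so the p-values measure the scatter between such stages. That scatter was estimated over all 17 libraries, among them those the rule had used, so the members' p-values are not independent of the rule. With only the gastrula and larva libraries in the fit, 0 of 19501 genes were called higher and 0 lower. On simulated counts for this comparison 7 of 50 genes with a 4-fold change passed, 32 of 50 with a 16-fold and 46 of 50 with a 64-fold change, so that only large changes were within reach. With a 2-fold change 0 of 50 passed, but that change lies at the log2 threshold of 1 itself, with a median estimate of 0.977.

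PL35334, at 16264955 to 16271882 of Scaffold_3430 (plus strand) with 2 exon records, had 10.1 and 8.99 CPM in the mesenchyme blastula libraries, 4.05 and 5.47 in the gastrula libraries, 108 in prism and 110 in pluteus. Both larva libraries were far above both gastrula libraries. The fitted log2 difference, larva minus gastrula, was 5.49 ± 0.87 (SE), with a Benjamini-Hochberg adjusted p of 0.00207 in edgeR's quasi-likelihood test. The adult level was 223 CPM in gut, 135 in the lantern, 85.7 in tubefeet and 71.4 in bodywall, and 1.65 CPM in ovaries.

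PL36557, on the minus strand of Scaffold_3432 from 4593345 to 4600330 with 9 exon records, had 6.12 and 8.62 CPM in the mesenchyme blastula libraries, 2.21 and 1.64 in the gastrula libraries, 8.85 in prism and 74.3 in pluteus. The larva libraries again did not overlap those of the gastrula, but pluteus was well above prism. The fitted log2 difference was 4.67 ± 0.94 (SE), with a Benjamini-Hochberg adjusted p of 0.0117 in edgeR's quasi-likelihood test. It did not exceed 0.331 CPM in any adult tissue, unlike PL35334. Neither call held without early gastrula, where the edgeR adjusted p was 0.0984 for PL35334 and 0.215 for PL36557, and that of PL36557 was also lost without late gastrula, at 0.105, and with library totals in place of TMM scaling, at 0.104. With only the 6 libraries from early mesenchyme blastula on in the fit, edgeR's adjusted p was 0.0626 for PL35334 and 0.0644 for PL36557.

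**Figure D3:**
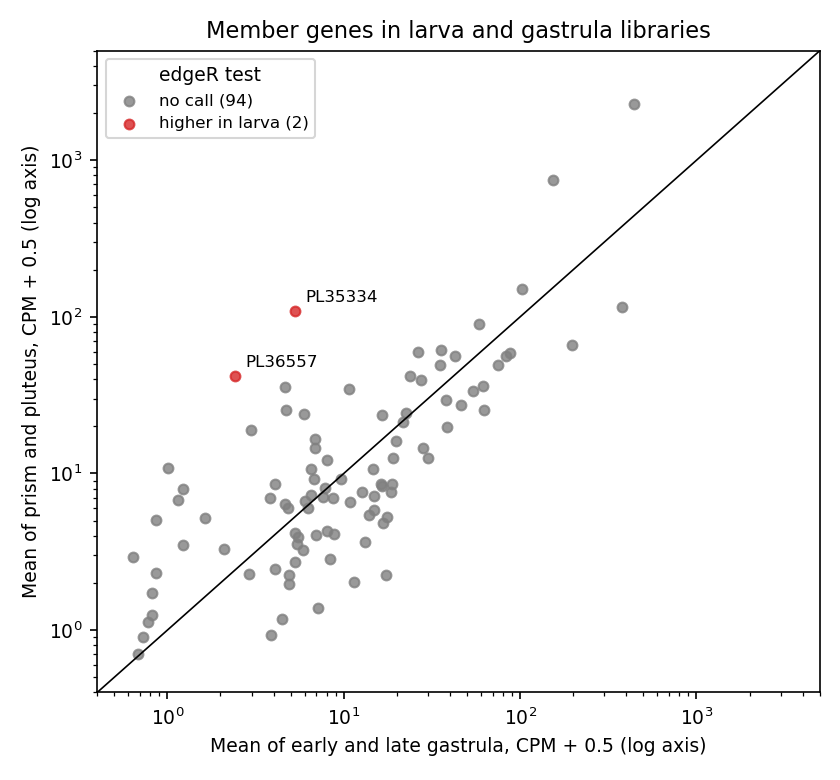
Mean of prism and pluteus against mean of early and late gastrula for the 96 members, both as CPM + 0.5 on log axes; the line marks equal levels and the 2 red points were called higher in the larva by edgeR. PL35334 lies at 4.76 CPM in gastrula and 108.9 CPM in larva, PL36557 at 1.93 and 41.6 CPM.

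Counted by level alone, 16 members (16.7%) had both larva libraries above both gastrula libraries, against 8.98% of all genes tested, and 27 (28.1%) had both below, against 31.1%. Pluteus alone was at least 2 times both gastrula libraries in 29 members (30.2%), against 5.05% of the other genes on at mesenchyme blastula, and both gastrula libraries were at least 2 times pluteus in 8 (8.33%), against 6.23%. Levels near the floor enter the 29, such as PL39683 with 0.092 and 0.364 CPM in the gastrula libraries and 0.809 CPM in pluteus. The other genes on had the higher median in early gastrula, 27.36 against 7.6 CPM. Pluteus also shares the low share on Scaffold_2421 with both libraries that chose the members, and the part of this was not tested. Prism lay below both late gastrula and pluteus in 71 members (74.0%), as it did in 81.2% of the other genes on, beside the low TMM factor of that library. The lowest fitted value, with no call, was that of PL07153, picked out after its values were seen: 50.5 and 69.8 CPM in the mesenchyme blastula libraries, 28.7 and 5.01 in the gastrula libraries, 0.843 in prism and 2.63 in pluteus, a log2 difference of -2.81 ± 1.01 (SE) with an edgeR adjusted p of 0.171.

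In adult tissues the members were less widely represented than the other genes on at mesenchyme blastula, as levels only, since the rule used 4 of the 5 tissues. Those other genes also had the higher median in early mesenchyme blastula, 23.21 against 8.17 CPM, and the same 5 CPM cut was put to both sets. At 5 CPM or more in no adult tissue were 41 members (42.7%), against 7.56% of the other genes, and 5 members (5.21%) were at that level in all 5 tissues, against 29.1%. In ovaries 15 members (15.6%) were at that level, against 78.5% of the other genes on. In gut there were 26 (27.1% against 60.5%), in bodywall 40 (41.7% against 82.6%), in tubefeet 37 (38.5% against 72.6%) and in the lantern 27 (28.1% against 38.0%). The gap was widest in ovaries and narrowest in the lantern, both used by the rule. The rule also held the members at 1 CPM or less in the egg, where 74.5% of the other genes on were at 5 CPM or more. How much of the gap in ovaries follows from that condition was not tested. All 26 members on in gut were also on in bodywall, as were 5788 of the 5814 other genes on in gut. Ovaries were the highest tissue, at 5 CPM or more, of 3 members (3.13%) against 42.9% of the other genes, and gut of 11 (11.5%) against 2.13%. Tubefeet were the highest of 22 members (22.9%) against 20.1%, a share near the background, bodywall of 13 (13.5%) against 22.6% and the lantern of 6 (6.25%) against 4.70%. In 32 members (33.3%) the highest adult tissue lay above every developmental library, against 22.6% of the other genes.

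In tubefeet 9 members (9.38%) were at least 4 times above every other adult tissue, against 2.25% of the other genes on. The highest member in ovaries, PL01535, was 1 of these: it had 45.9 CPM in ovaries but 356 in tubefeet, with 10.1 in bodywall, 5.21 in the lantern and 2.90 in gut. It lies at 13400469 to 13416424 of Scaffold_3425 (minus strand). The highest member in both tubefeet and lantern was PL27981, on the minus strand of Scaffold_3431 from 27668355 to 27746327, with 672 CPM in tubefeet, 512 in the lantern, 176 in bodywall, 81.2 in gut and 4.08 in ovaries. PL27981 was also 1 of the 14 members nearly off in the gastrula, with 10.8 and 9.66 CPM in the mesenchyme blastula libraries and 1.94 and 1.28 CPM in the gastrula libraries, so in tubefeet, lantern, bodywall and gut it lay above every developmental library, and in ovaries below both mesenchyme blastula libraries.

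At the other end, 16 members (16.7%) stayed under 1 CPM in every adult tissue, against 2.05% of the other genes on. Of these PL34185 reached 1132 CPM in prism, PL37963 reached 97.1 CPM and PL36557 reached 74.3 CPM in pluteus. The other 13 did not exceed 23.9 CPM in any developmental library.

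**Figure D4:**
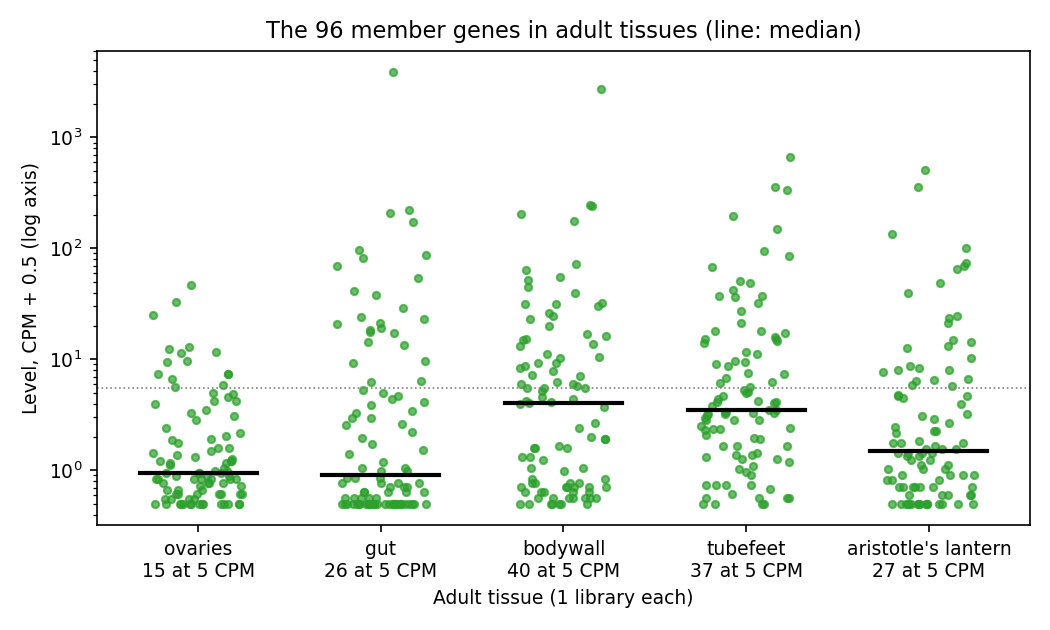
Level of the 96 members in each adult tissue, as CPM + 0.5 on a log axis, 1 point per member, spread sideways at random; the thick line is the median and the dotted line marks 5 CPM. Medians lie between 0.41 CPM in gut and 3.51 CPM in bodywall, and each tissue holds members far above its median, the highest being PL22768 at 3861 CPM in gut.

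Open chromatin at the annotated starts was measured independently of the rule. A start peak here is a peak summit within 1 kb of the annotated start of a gene model. In the 16-cell list 8 members (8.33%, exact 95% binomial interval 3.67 to 15.8) had a start peak, in the blastula list 37 (38.5%, 28.8 to 49.0), in the gastrula list 54 (56.3%, 45.8 to 66.4), in the prism list 48 (50%, 39.6 to 60.4) and in the pluteus list 26 (27.1%, 18.5 to 37.1). The longest list, that of the gastrula, held the highest share. The other genes on at mesenchyme blastula stood at 55.2% in the blastula list and 60.4% in the gastrula list, and all gene models at 37.4% and 40.3%. Intervals cover counting error only, and the lists differ in length, from 30683 peaks for 16-cell and 44711 for pluteus to 142485 for blastula and 154157 for gastrula. The lists named for early and late blastula held identical peaks and were used as 1 blastula list, and which of these 2 stages its peaks come from is not settled.

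Between the blastula and the gastrula list 21 members (21.9%) gained a start peak and 4 (4.17%) lost it. Among all gene models 6.95% gained and 3.99% lost it, and among the other genes on 7.87% and 2.66% did. Only a gene without a blastula start peak can gain one. Such a peak was already there in 38.5% of members, 37.4% of all gene models and 55.2% of the other genes on. The shares that gained a peak are thus not like for like between members and the other genes on. With the 30683 top-scoring peaks of each list alone, the share of members was 8.33% in the 16-cell and blastula lists, 17.7% in the gastrula, 22.9% in the prism and 20.8% in the pluteus list, so that the gastrula list no longer held the highest share. It rose between the blastula and gastrula lists over all features too, from 14.3% to 18.0% of all gene models and from 25.5% to 36.9% of the other genes on, and in both lists the members then lay below the other genes on. Neighbouring classes are small: of 25 genes first on at blastula by the same thresholds 15 (60%) had a start peak in the blastula list and 14 in the gastrula list, and of 16 first on at gastrula 10 (62.5%) had one in each. Of the 96 members, 33 (34.4%) had a start peak in both the blastula and the gastrula list and 6 (6.25%) in all 5 lists, close to the 33.4% and 6.28% of all gene models. In none of the lists were 38 (39.6%), against 54.8% of all gene models and 36.3% of the other genes on.

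**Figure D5:**
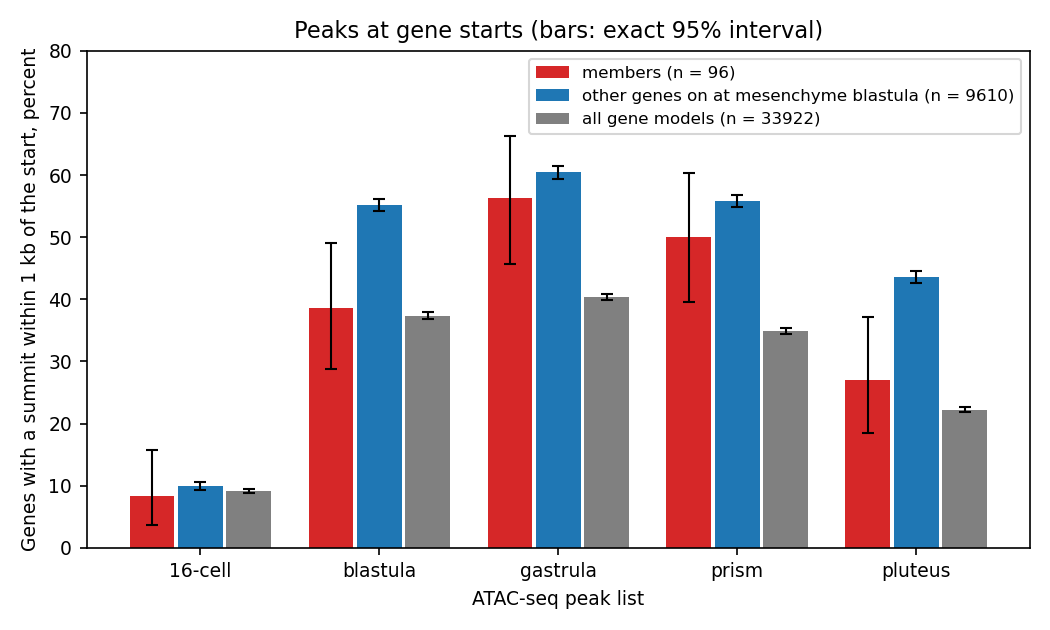
Percent of genes with a peak summit within 1 kb of the annotated start in each ATAC-seq list, for the 96 members, the 9610 other genes on at mesenchyme blastula and all 33922 gene models; error bars are exact 95% binomial intervals. The members stand at 38.5% in the blastula list and 56.3% in the gastrula list, where the other genes on stand at 55.2% and 60.4%.

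Of the 4 members with the highest mesenchyme blastula CPM, not set per length, 3 were among the 21 that gained a start peak. With positions counted from the annotated start, negative upstream, PL00340 had its nearest blastula summit at -11122 bases and a gastrula summit at 748 bases (coordinate 38166715). PL07609 had its nearest blastula summit at -5737 bases and a gastrula summit at 57 bases (34519258). PL34185 had them at 3402 and at 163 bases (12045149 in the gastrula list). In all 3 the nearest summit thus came inside the window only in the later list. PL22768 had a start peak already in the blastula list, with the summit at -796 bases, and its gastrula summit lay at 8 bases. Of the members called higher in the larva, PL35334 had a start peak in every list but 16-cell and PL36557 in every list but pluteus, so both had a start peak in the blastula and gastrula lists too.

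By later course, 32 of the 50 members on in gastrula and pluteus (64%, 49.2 to 77.1) had a gastrula start peak, against 5 of the 14 nearly off in the gastrula (35.7%, 12.8 to 64.9). These intervals overlap. In a wider window, 10 kb either side of the start, the members had a median of 3 blastula summits and 4 gastrula summits, against 3 and 3 for all gene models. The member with most blastula summits in that window was PL26438, on the plus strand of Scaffold_649 from 19450945 to 19453278, with 10, and with 12 in the gastrula list; none lay within 1 kb of its start, the nearest in the blastula list being at -1540 bases. Its level was 7.72 and 10.6 CPM in the mesenchyme blastula libraries, 14.0 in pluteus and 96.7 in adult gut.

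The members lay on 27 scaffolds and were built as smaller models than the other genes on. Their median exonic length was 1761 bases with 5 exon records, against 2482 bases and 10 exon records, and 15 members (15.6%) had 1 exon record, against 4.42% of the other genes on and 23.2% of all other gene models. A model on the opposite strand overlapped 7 members (7.29%, against 7.15% of other gene models), whose counts may include reads of that partner, since the sources used here do not settle which strand the reads follow; 89 (92.7%, against 90.9%) overlapped no other model.

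Next to another member in gene order were 11 members (11.5%), in 5 runs, while 0.517% of the other gene models lay next to a member. The longest run held 3: PL15101 (minus strand, 1264624 to 1301092), PL14401 (plus strand, 1313417 to 1337473) and PL14951 (minus strand, 1339363 to 1339826), all on Scaffold_3434. PL15101 had 11.5 and 17.1 CPM in the mesenchyme blastula libraries and 6.81 in pluteus, and among adult tissues was highest in tubefeet with 17.4 CPM. PL14401 had 44.2 and 38.0 CPM, 80.7 in prism and 17.3 in pluteus, and in adults 247 CPM in bodywall and 209 in gut. PL14951 had 6.39 and 12.4 CPM, was highest in early gastrula with 18.2 CPM, and reached 6.75 CPM at most in adults, in bodywall. The 3 neighbours thus shared the step at mesenchyme blastula, which the rule required, and differed afterwards. All 3 had a start peak in the blastula list.

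The other 4 runs were pairs on the same strand. The closest pair, PL15315 and PL15138, also on Scaffold_3434 and picked out after their values were seen, were 264 bases apart. PL15315 had 5.86, 7.67, 5.62, 1.09, 0.316 and 0.539 CPM from early mesenchyme blastula to pluteus, and PL15138 had 6.66, 7.76, 6.73, 2.095, 1.05 and 1.89 CPM. Both courses ran side by side, on at 18 to 21 h and low from 24 h. Whether such a pair is 2 genes or parts of 1 transcript was not tested.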

How the data were processed

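The table deposited by the authors gives raw read counts of each gene model in 22 RNA libraries, beside exonic lengths. Per the labels' protocols, RNA was taken with Trizol and strand-specific libraries were read as 2 x 150 bases. Per the submitters' processing notes, STAR 2.5.2b and featureCounts 1.6.1 were used, and per the file headers the strand option was 1, with no option for pairs. No source used here names the genome build; coordinates follow the deposited tables and are 1-based. Every count was even in 21 libraries, but not in bodywall, so Poisson intervals rest on halved counts in those 21. The edgeR test used the counts as deposited, not halved, and counts divided by 2 were an alternative. The authors' deposited peak lists give a score and a −log10 p-value per peak. The tools named for them, per the submitters' processing notes, are Genrich and Bowtie2 2.4.1. Scores were used only to rank peaks within a list, and each list was read as a pool of its stage's samples. CUT&Tag samples were not analysed here.

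CPM is the count over the library total. The test was edgeR 4.0.16 in R 4.3.3 (TMM, filterByExpr, glmQLFit, 11 residual degrees of freedom, Benjamini-Hochberg adjustment over 22940 genes), and DESeq2 1.42.0 was an alternative. On simulated data 7 of 21629 unchanged genes were called, and every call among changed genes had the right sign. Alternatives were other scalings, filters, libraries, windows and thresholds. Genes were named by rule: the 4 with the highest mesenchyme blastula mean, up to 2 called rises and 2 called falls, the highest per adult tissue, the longest run of neighbours, the most blastula summits within 10 kb, and the gene at the rank limit, which was not reached. The members and lists were chosen with earlier results of these data known. Cell type marker lists were not used here, since they need gene names.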

Additional observations from a re-analysis of the deposited data

How the results depend on the processing

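The count of 2 members called higher in the larva became 1 with library totals alone, 11 with DESeq2, 12 with no filter on low counts and 6 with counts divided by 2. With only the gastrula and larva libraries it was 0, beside 0% of all genes tested. With only the 6 libraries from early mesenchyme blastula it was 0, beside 0.0243%. Without the 3 libraries under 1% on Scaffold_2421, an alternative chosen after seeing the data, prism alone stood for the larva. The median log2 change was then -0.46 over the members and -0.74 over all genes tested. Leaving out 1 gastrula or larva library left 1 library on that side, so the changes are given here and not the calls. The median log2 change over the members was 0.36 without early gastrula, 0.35 without late gastrula, 0.44 without prism and -0.51 without pluteus. Over all genes tested it was -0.06, 0.08, 0 and -0.75 in the same order. No filter gave 1 member lower, beside 0.86% of all genes tested. The share of all genes called higher moved as well. From 2.31% it went to 0.288% with library totals alone, 7.14% with DESeq2, 3.26% with no filter and 3.62% with counts divided by 2. Library totals alone moved the median log2 change of all genes from -0.02 to -0.49, and leaving out pluteus moved it to -0.75. PL35334 stayed positive under all 13 alternatives, between 4.49 and 6.05 on the log2 scale with edgeR or DESeq2 adjusted p from 1.282e-10 to 0.127, and passed in 10; PL36557 did so between 3.71 and 5.197, with adjusted p from 1.42e-08 to 0.215, and passed in 8. The cause was not tested. The 96 members became 63 when 5 CPM in early gastrula was also asked, and 101 with TMM-scaled CPM, 86 of them shared. Members highest in pluteus went from 32 to 16 with TMM-scaled CPM, for which the other genes on were not counted. Members on in no adult tissue went from 41 to 16 when 1 CPM counted as on. The blastula start-peak share was 54.2% with a 2 kb window and 8.33% when every list was cut to its 30683 highest-scoring peaks; the gastrula share was 41.7% with 500 bp, 68.8% with 2 kb and 17.7% for the cut lists, and in each of these settings it was above the blastula share. No paired analysis was possible because each RNA stage has 1 library and the labels give RNA libraries no replicate numbers. Depth set a counting floor of up to 0.381 CPM, below which levels of the members in early stages were not resolved.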
